A study of Mus musculus with 2 samples.

Results

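The 39 genes described here respond to interferon, the cytokine that cells release on sensing a virus. They were picked by symbol as 2 receptor subunits, 4 Stat and Irf factors, 3 RNA sensors and 30 effectors. Of the 39, 37 were named by at least 1 probe set that names no other gene, out of 18193 genes named on the array, and these 37 genes had 63 probe sets. Isg15 shared its probe set with Gm9706, and no probe set named Ifi44, so these genes entered no count. The samples were hematopoietic stem cells (HSC, marrow cells from which every blood lineage arises) of mice aged 3 months. The first RNA sample came from cells labelled SIRT6 knockout and the second from cells labelled wild type, and each was hybridised to 1 Affymetrix array. Sirt6 is a nuclear NAD-dependent deacylase of histones. The disrupted part of the allele, the sort of the HSC, the number of animals pooled and any treatment were not stated in the labels used.

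Type I interferons bind a receptor made of Ifnar1 and Ifnar2, whose kinases phosphorylate Stat2. Stat2 joins Irf9 in a complex that enters the nucleus and binds the interferon-stimulated response element, a repeat of GAAA in the promoters of many antiviral genes. Interferon drives quiescent HSC into cycle, and stem cells keep part of the antiviral program on without infection.

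The values were linear MAS5 signals, 1 per probe set and array, and the arrays had median signals of 60.7 (labelled knockout) and 60.8 (wild type). Since each genotype had 1 array, there was no replicate, and no SD, interval or test of the genotype can be given; every difference compares 2 RNA samples. A gene was taken from its brightest probe set and counted as measured when that probe set was above a floor of 60.5 (the median over all probe sets) on at least 1 array. Values under the floor were raised to it before the log2 ratio of knockout over wild type was taken. The only error that could be computed was technical: ratios of probe sets within a gene had an SD of 0.22 over 4632 genes, which holds no difference between animals. The single Sirt6 probe set read 174 (labelled knockout) against 124 (wild type), in the order used for all pairs of signals below. The covered part of the transcript was not stated, so this probe set does not check the label, on which all directions depend.

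Interferon response genes read lower, by modest amounts, on the array labelled knockout. Of the 37 genes, 33 were measured, and 6 of these (18.2%) were at least 1.5-fold lower: the deISGylase Usp18, the oligoadenylate synthetase-like gene Oasl2, the antiviral gene Rtp4, the apoptosis factor Xaf1, the RNA sensor Ifih1 and viperin, Rsad2. The same size was reached downward by 2.63% of all 11547 measured genes. With values raised to the floor, no member was at least 1.5-fold higher, against 1.71% of all genes, although Stat2 is a bound of at least 1.43-fold and passed 1.5-fold with a lower floor or none. On the same scale none of the 33 was at least 2-fold different, as 0.572% of all genes were downward and 0.398% upward. Usp18, a bound of at least 1.80-fold, may have been. At a log2 difference of at least 0.32, 17 of the 33 (51.5%) were lower and 1 was higher, where 8.56% of all genes were lower and 7.26% higher. The log2 ratio was below 0 in 27 of 33 members and in 49.5% of all genes. The median over the measured members was -0.34, and over all measured genes it was 0.0023. Over the 31 members above the floor on both arrays, a choice that leaves out Usp18 and Stat2, 5 were at least 1.5-fold lower, against 2.33% of all such genes, and 0 higher, against 1.56%. Of these 31, 26 had a ratio below 0, against 50.2% of such genes, and the median was again -0.34.

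**Figure D1:**
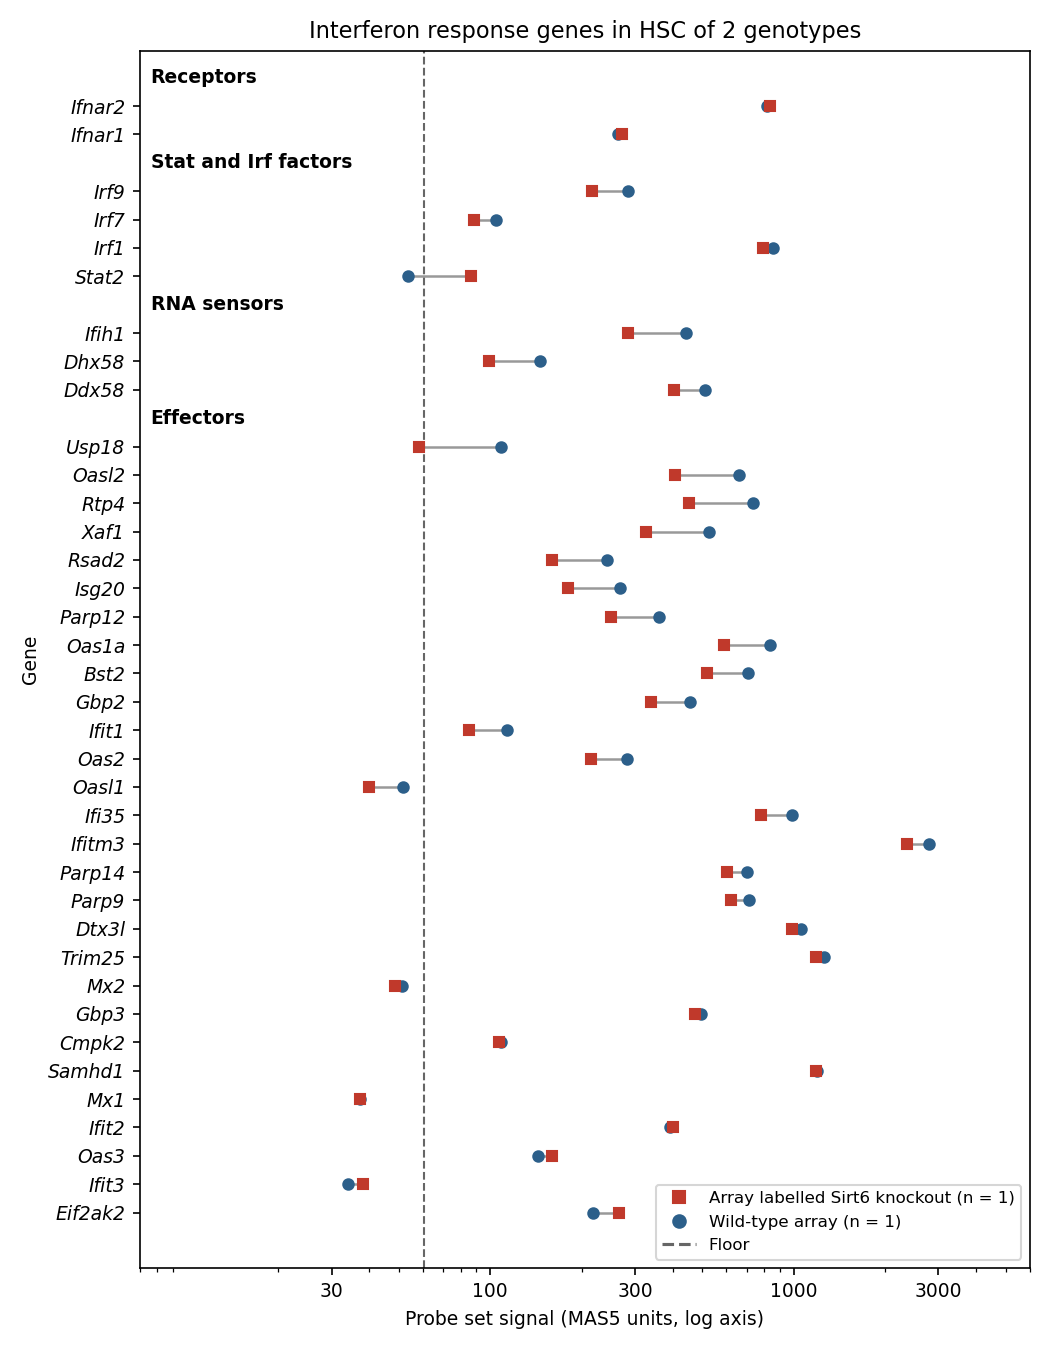
Signal of each of the 37 interferon response genes (1 probe set per gene, log axis in MAS5 units) (squares, array labelled Sirt6 knockout; circles, wild-type array), by role, with the floor of 60.5 as a dashed line. There is 1 array per genotype and so no error bar; the squares lie left of the circles for most effectors and all 3 RNA sensors, and on or right of them for both receptors.

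The promoters were searched for the response element. RefSeq promoter sequences (GRCm38.p6, 250 bases before to 50 after the start of transcription) were in the table for 31 of the 39 genes. The response element was searched on both strands as GAAA, any 2 bases and GAAA again, which reads TTTC, 2 bases and TTTC on the other strand. It was in the promoter of 14 of the 31 genes (45.2%) and of 3.99% of all 27025 genes, or in 3.44% of all 32851 promoters. The first sequence below is the whole upstream window of Rsad2, a gene at least 1.5-fold lower, at chr12:26456453-26456702 on the minus strand. Its element lies at positions -120 to -111 from the start. The others are windows of 30 bases around the element, and capitals mark the matches in all of them.
Rsad2: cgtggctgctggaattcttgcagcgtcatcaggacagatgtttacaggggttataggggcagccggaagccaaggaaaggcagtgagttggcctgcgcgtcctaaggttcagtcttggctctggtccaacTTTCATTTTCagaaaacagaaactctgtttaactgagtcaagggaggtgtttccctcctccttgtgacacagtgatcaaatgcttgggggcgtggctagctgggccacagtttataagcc
Ifih1: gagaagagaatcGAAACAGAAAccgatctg
Ddx58: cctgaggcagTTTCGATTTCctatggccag
Oas1a: ttctcggGAAATGGAAACTGAAAatctact
Bst2: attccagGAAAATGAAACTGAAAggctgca
Gbp2: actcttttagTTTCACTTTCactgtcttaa
Ifit1: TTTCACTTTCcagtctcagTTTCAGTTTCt
Isg15: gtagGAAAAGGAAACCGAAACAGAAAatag
Stat2: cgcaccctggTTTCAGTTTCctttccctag
Oas3: gcagggaggaGAAAACGAAAgtgaagggag
Eif2ak2: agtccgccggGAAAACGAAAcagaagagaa

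The windows of Ifih1, Ddx58, Oas1a, Bst2, Gbp2 and Ifit1 come from genes that read lower on the array labelled knockout. Those of Stat2, Oas3 and Eif2ak2 come from genes whose brightest probe set had a ratio above 0, each with a limit. Stat2 rests on 1 dim probe set, and Oas3 (0.15) lies within the technical SD of 0.22. The other probe sets of Eif2ak2 were on the lower side (-0.20 and -0.35). On the minus strand lie Ifih1 (chr2:62646206-62646235), Ddx58 (chr4:40239804-40239833), Oas1a (chr5:120907523-120907552), Bst2 (chr8:71537580-71537609), Isg15 (chr4:156200871-156200900), Oas3 (chr5:120777715-120777744) and Eif2ak2 (chr17:78882535-78882564). On the plus strand lie Gbp2 (chr3:142620594-142620623), Ifit1 (chr19:34640785-34640814) and Stat2 (chr10:128270266-128270295). Isg15 held 3 overlapping matches at positions -78 to -57, and Oas1a and Bst2 held 2 overlapping ones each. In Ifih1 and Ddx58 the match fell after the start, at positions 33 to 42 and 3 to 12. Matches in Gbp3, Ifit3 and Ifitm3 complete the 14.

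By role, the element was in both RNA sensors with a promoter in the table, in 11 of 23 effectors, in 1 of 4 factors and in neither receptor. Of the 6 genes at least 1.5-fold lower, Rsad2 and Ifih1 held it, Oasl2 and Xaf1 did not hold these letters in this window, and Usp18 and Rtp4 were not in the table. The 12 measured members with the element had a median log2 ratio of -0.38, with 9 below 0. The 15 measured members without it had a median of -0.11, with 12 below 0. Among all measured genes with a promoter in the table, 49.8% had a ratio below 0. The difference between these medians was not tested, and both kinds of member read mostly lower. A shorter palindrome bound by Stat dimers (TTC, any 3 bases, GAA) was in 11 of the 31 genes (35.5%) and in 9.55% of all genes, or 8.30% of all promoters. Both receptors held it. Of the 11 measured members with it, 0 were at least 1.5-fold lower, which is close to the 2.58% of all measured genes with a promoter in the table. The median of these 11 was -0.11, with 7 below 0. Matches of this palindrome share bases with the response element in Bst2 and Ifitm3. Outside the list of 39, 327 measured genes held the response element. Of these, 16 (4.89%) were at least 1.5-fold lower and 8 (2.45%) higher, where 2.58% and 1.59% of all measured genes with a promoter in the table were, and their median was -0.02.

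The receptor subunits read nearly the same on both arrays by their brightest probe sets. Ifnar1, the subunit that carries the kinase Tyk2, read 272 (labelled knockout) against 263 (wild type), a log2 ratio of 0.05. Its second measured probe set gave 0.48. Ifnar2, the subunit that binds ligand most tightly, read 835 against 816 (0.03), and its other probe sets gave -0.16 and 0.14. The probe sets of Ifnar2 therefore lay on both sides of 0, within the technical SD.

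The transcription factors differed in direction, and the 3 Irf factors stayed under 1.5-fold. Irf9, the DNA-binding subunit of the interferon complex, read 217 against 284, a log2 ratio of -0.39. Irf7, which amplifies interferon production, read 88.7 against 104 (-0.23), and Irf1, a factor also induced by interferon gamma, read 790 against 855 (-0.11). These 3 were on the lower side, and Irf9 stood the furthest from 0 among them. Stat2, the Irf9 partner, went the other way, with 86.4 against 53.6. The wild-type value was under the floor, so Stat2 was at least 1.43-fold higher, the highest ratio of the members. Its second probe set was under the floor on both arrays (44.3 against 37.4), so the Stat2 direction rests on 1 dim probe set.

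All 3 cytosolic RNA sensors read lower, with log2 ratios from -0.64 to -0.34 and a median of -0.56. Ifih1, which encodes the sensor MDA5 of long double-stranded RNA, read 284 (labelled knockout) against 442 in wild type (-0.64), so that the knockout signal was 64.2% of the wild-type signal. Dhx58, which encodes the regulatory helicase LGP2, read 99.3 against 146 (-0.56), just under 1.5-fold. Its other probe sets were under the floor on both arrays (36.8 against 37.1 and 17.0 against 17.8), so this ratio rests on 1 probe set. Ddx58, which encodes the sensor RIG-I, read 403 against 511 (-0.34), and its second measured probe set gave -0.64. The brightest probe set of Ddx58 thus showed the smaller of its differences.

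The effectors held most of the members and most of the lower signals. Of 28 with a probe set, 24 were measured. At least 1.5-fold lower were 5, and 0 were higher, against 2.63% and 1.71% of all genes, so the 0 lies close to the share of the array. A ratio below 0 was found in 21 of the 24, against 49.5% of all genes, and the median was -0.37. Usp18, which removes Isg15 from proteins and damps signalling at the receptor, read 58.3 against 109. The knockout value was under the floor, so Usp18 was at least 1.80-fold lower, on 1 probe set. Rtp4, the interferon-induced receptor transporter protein 4, read 452 against 733 (log2 -0.70). Its second probe set was under the floor on both arrays. Xaf1, a pro-apoptotic zinc finger protein, read 326 against 526 (-0.69), but its second measured probe set read 88.4 against 64.3 (0.46). The probe sets of Xaf1 disagreed by 1.15, the widest spread among members with several measured probe sets. Rsad2, the radical SAM enzyme viperin, read 160 against 243 (-0.60), and its second measured probe set gave -0.42 against the floor.

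The oligoadenylate synthetase family makes 2'-5' oligoadenylates that activate RNase L, or resembles the enzymes that do. Oasl2 read 407 against 663 (log2 -0.70), Oas1a 588 against 837 (-0.51) and Oas2 215 against 283 (-0.40). Oas3 was on the other side of 0, with 159 against 144 (0.15). Oasl1 was under the floor on both arrays (40.0 against 51.5). The family was therefore lower in 3 of 4 measured genes. Rtp4, Xaf1 and Oasl2 were nearly tied, and on 1 array each their order carries no weight.

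Several effectors came close to 1.5-fold. Isg20, an exonuclease that degrades viral RNA, read 181 against 268 (log2 -0.57), the closest to 1.5-fold of the members that did not reach it on the lower side. Rsad2 was the closest of those that did. Parp12, a mono-ADP-ribosyltransferase, read 249 against 360 (-0.53). Bst2, the tetherin that holds budding virions on the cell, read 518 against 708 (-0.45). The GTPase gene Gbp2 was lower on both of its probe sets, with 340 against 457 and 260 against 347 (-0.42 each). Its relative Gbp3 differed little, 471 against 495 (-0.07). Ifi35, which interacts with Nmi, was lower on all 3 of its probe sets, from -0.41 to -0.29.

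The Ifit proteins, which bind foreign RNA ends, and the Mx GTPases, which trap viral nucleocapsids, were measured only in part. Ifit1 read 85.4 against 114 (log2 -0.41) and Ifit2 401 against 390 (0.04). Ifit3 (38.2 against 34.1), Mx1 (37.1 against 37.3) and Mx2 (48.6 against 51.2) were under the floor on both arrays, where the signal carries no order. With Oasl1 these are the 4 members that were not measured. The signal shared by Isg15, the ubiquitin-like modifier, and Gm9706 was 92.6 against 143 (-0.63), and which of these genes gave it cannot be told from the probe set.

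The remaining effectors had log2 ratios within 0.32 of 0. Parp9 (log2 -0.20), its partner Dtx3l, a ubiquitin ligase (-0.10), and Parp14 (-0.21) were on the lower side, as was Ifitm3, a membrane protein that blocks viral entry (2369 against 2790, -0.24). Samhd1, which hydrolyses dNTPs, read 1186 against 1196 (-0.01). Trim25, a ubiquitin ligase that activates RIG-I, gave -0.09, and Cmpk2, a mitochondrial nucleotide kinase next to Rsad2 in the genome, gave -0.02. Eif2ak2, the kinase PKR that stops translation, read 265 against 218 (0.28). Its other probe sets gave -0.20 and -0.35, so its direction changes with the probe set chosen.

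**Figure D2:**
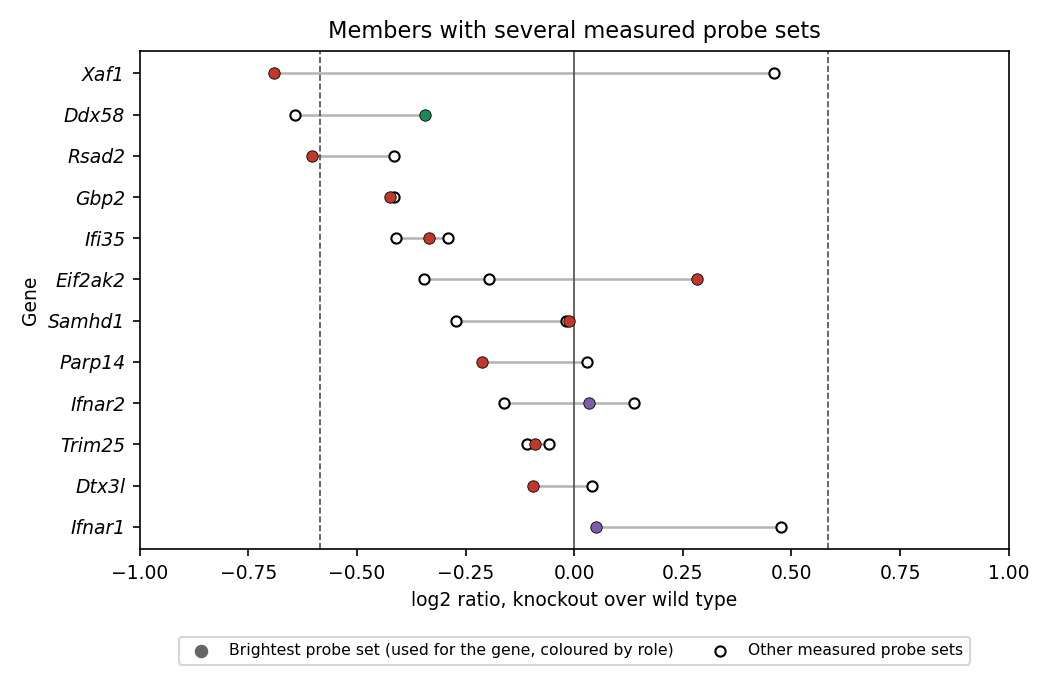
The log2 ratio of every measured probe set (horizontal axis, knockout over wild type) of the 12 interferon response genes with at least 2 of them. Filled points are the brightest probe set, open points the others, and dashed lines mark 1.5-fold; Xaf1 and Eif2ak2 span 0 widely, while the probe sets of Gbp2, Ifi35 and Trim25 lie close together.

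Probe sets of a gene share the RNA and are no replicates, but they show how far a ratio can be read. Of the 12 members with at least 2 measured probe sets, 7 had all of them on the same side of 0. These were 6 on the lower side (Ddx58, Gbp2, Ifi35, Rsad2, Samhd1 and Trim25) and Ifnar1 on the higher side. Dtx3l, Eif2ak2, Ifnar2, Parp14 and Xaf1 had probe sets on both sides. Among all 5026 genes with several measured probe sets, 52.5% had them on the same side, so the share of 58.3% in the members is close to that of the array.

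**Figure D3:**
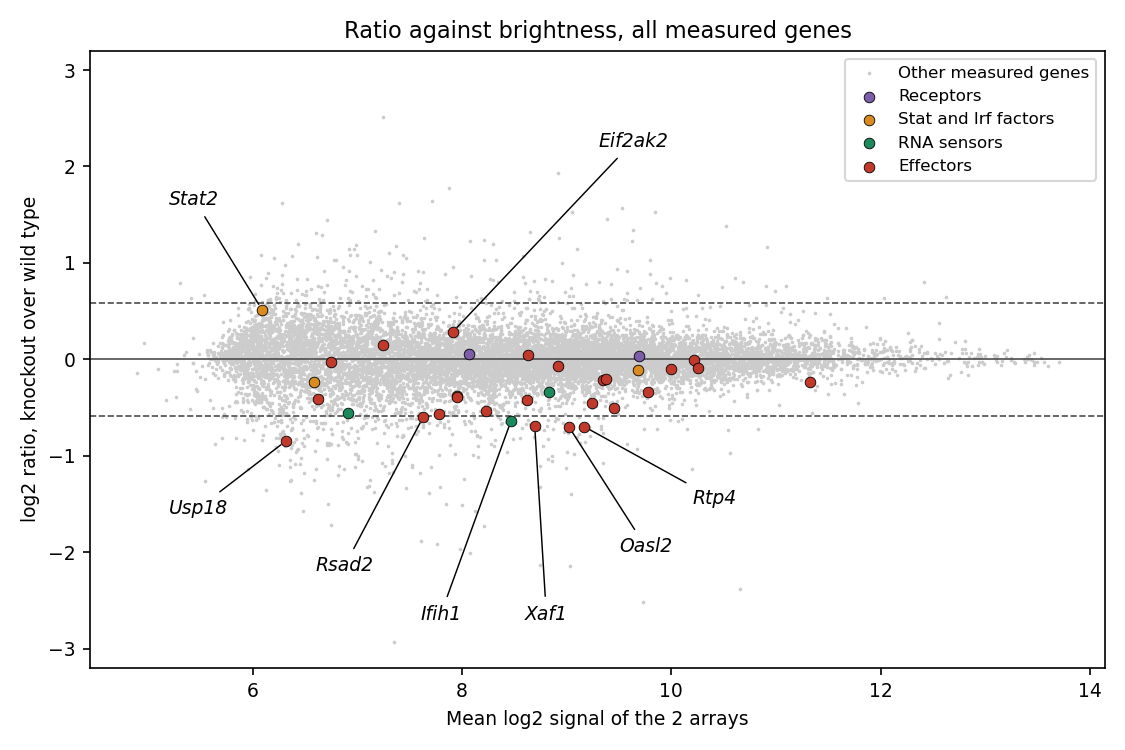
The log2 ratio of knockout over wild type against the mean log2 signal of the 2 arrays for all 11547 measured genes (grey), with the 33 measured interferon response genes coloured by role and dashed lines at 1.5-fold. The members lie mostly under 0 across the range of brightness and inside the cloud of other genes; with values raised to the floor, Usp18 is the lowest and Stat2 the highest of them.

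Counted from the lowest ratio among 11547 measured genes, Oasl2 was at rank 195, Rtp4 at 199, Xaf1 at 204, Ifih1 at 253 and Rsad2 at 287. Usp18, whose ratio is a bound, has no rank of its own. The differences of the measured members were mostly in the same direction.

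Other genes of the interferon pathway, from a list of 74 that holds none of the 39, showed a smaller difference. The list holds receptors, kinases, sensors and interferon genes beside further induced genes. Of 66 with a probe set of their own, 54 were measured, and the median log2 ratio was -0.11. The ratio was below 0 in 33 of the 54, against 49.5% of all genes. At a log2 difference of at least 0.32, 14 (25.9%) were lower and 3 were higher, against 8.56% and 7.26% of all genes. At least 1.5-fold lower were 4 (7.41%), and 1 was higher, against 2.63% and 1.71% of all genes. The lower ones were Iigp1, a GTPase of cell-autonomous immunity (233 against 432, -0.89), the helicase gene Ddx60 (79.1 against 131, -0.72), Ifi27 (861 against 1339, -0.64) and Ube2l6, which encodes the conjugating enzyme for Isg15. Ube2l6 read 47.6 against 91.9, at least 1.52-fold lower, and belongs with Usp18 to the Isg15 system. The higher one was Lgals9, galectin-9 (1114 against 724, 0.62). The 4 immunity-related GTPases Iigp1, Igtp (-0.50), Irgm1 (-0.43) and Irgm2 (-0.20), which interferon gamma induces, all had ratios below 0. The kinases Jak1 (0.24), Jak2 (-0.14) and Tyk2 (-0.09) and the DNA sensor pair Cgas (-0.19) and Sting1 (0.17) had log2 ratios within 0.32 of 0. The listed interferon genes with a probe set (Ifna1, Ifna2, Ifna4, Ifnb1 and Ifng) did not pass the floor on either array. Ifna9, not on the list and named after its value was seen, was just above it on 1 array (66.9 against 42.1). A further 8 listed genes were not analysed here.

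Genes of MHC class I presentation, which interferon also induces, had a median log2 ratio close to 0. Tap1, Psmb8 and Psmb9 are also among the other pathway genes, whose median without them was -0.135 (51 measured). Of the 16 measured MHC class I genes, 0 were at least 1.5-fold lower or higher, against 2.63% and 1.71% of all genes. With 16 genes, counts of 0 lie close to these shares. The median was -0.03. The ratio was below 0 in 10 of the 16 (62.5%), against 49.5% of all genes. The peptide transporter gene Tap2 was the highest (0.52), followed in size by the chaperone gene Calr (0.28), and H2-M3 (-0.22) and B2m, the light chain (-0.17), led on the lower side. At a log2 difference of at least 0.32, 0 of 16 were lower and 1 was higher, against 8.56% and 7.26% of all genes. With 1 array per group the difference between this group and the interferon response genes was not tested.

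**Figure D4:**
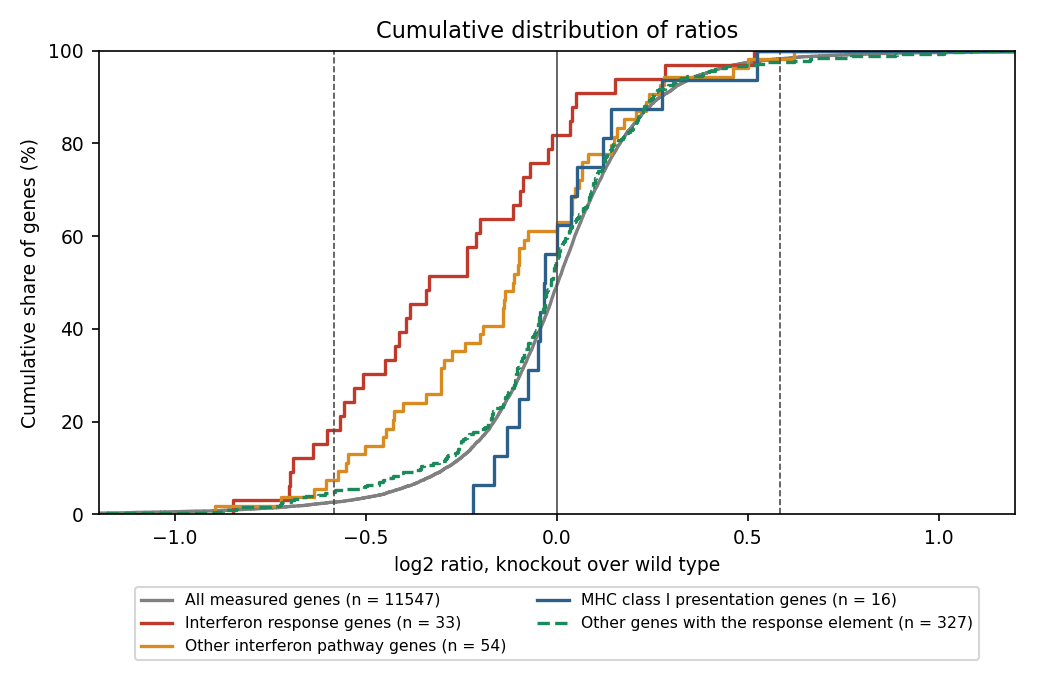
Cumulative share of genes (vertical axis, %) at or under each log2 ratio of knockout over wild type, for the 33 measured interferon response genes, 54 other interferon pathway genes, 16 MHC class I genes, 327 other genes with the response element in the promoter, and all 11547 measured genes; dashed lines mark 1.5-fold. The curve of the interferon response genes lies left of the others over most of the range below 0, at a median of -0.34. That of the MHC class I genes stays close to 0. Tap1, Psmb8 and Psmb9 are in both the pathway and the MHC class I curve.

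Markers of cell types differed between the same RNA samples, and summed signals here cover the measured genes. In bulk RNA, fewer cells of a type and less RNA per cell cannot be told apart. HSC markers were all measured (13 with a probe set), of which 6 were at least 1.5-fold lower, with a median log2 ratio of -0.43 and a summed signal of 9560 against 11707. Gfi1 (0.34), Gata2 (0.20) and Kit (0.03) were above 0. The other 10 were below 0, led by Fgd5 (-1.38), Mllt3 (-1.17), Hlf (-1.13) and Procr (-0.87). Granulocyte markers went the other way, with 10 of 13 at least 1.5-fold higher, a median of 0.76 and a summed signal of 37308 against 23287, led by Lcn2 (1.26), Ms4a3 (1.17), Chil3 (0.93) and Ngp (0.84). Their part in the lower interferon response genes, whose summed signal was 15795 against 18832, was not tested. Of the markers of plasmacytoid dendritic cells, the main producers of type I interferon, 7 of 12 were measured, with a summed signal of 3039 against 3101. Siglech, Spib and Pacsin1 did not pass the floor on either array, and Bst2 is a member of that list too. Monocyte markers summed to 2959 against 1889 (10 of 11 measured, median 0.04), with F13a1 (1273 against 428) holding most of the difference. B cell markers had 8 of 10 measured (2126 against 4398, median 0.52, with Ighm holding most of the wild-type sum), and T and NK cell markers 6 of 11 (3100 against 2450, median 0.37), with Cd3d, Cd3e and Cd3g under the floor. Erythroid markers had a median of -0.12 (3187 against 2577, 7 of 8 measured), and megakaryocyte markers -0.23 (2391 against 2284, 6 of 8). These sums went against the medians through Tfrc (2608 against 1595) and Itga2b (1205 against 653). Stromal and endothelial markers had a median of -1.18 (427 against 940, 4 of 10), with Cxcl12 (57.4 against 461) holding most of the difference.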

How the data were processed

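The authors' deposited values, 1 for each probe set on each array, are signal intensities on a linear scale, and the submitters' processing notes name MAS5 without a version, a scaling target or detection calls. Signals were not rescaled before log2 was taken. The platform annotation gave the gene names: of 45037 probe sets, 34945 named 1 gene, 932 several and 9160 none, and only the first kind was used. The floor, at percentile 50 of the mean log2 signal, left 11547 of 18193 genes measured. Where 1 side of a ratio was under the floor, the ratio is a bound, written "at least". No test was run, since each genotype has 1 array, and the number of arrays limits the precision. Every member is described. Of the pathway, MHC class I, HSC and granulocyte lists, the 4 genes with the largest ratio were named by rule. Other marker lists are given by sums, and further names were chosen after their values were seen. Members and lists were chosen with earlier results of these data known. Ifih1 is shown by a short window because its match lies after the start. Python 3.11.15, numpy 2.4.6, pandas 2.3.3 and statsmodels 0.14.6 were used, and the procedure was tested on simulated data.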

Additional observations from a re-analysis of the deposited data

How the results depend on the processing

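No member at least 1.5-fold lower turned to the other side under any alternative in which it was measured. Usp18 was not measured with the floor at percentile 75. Of 290 member ratios, 285 moved by less than the SD between probe sets, but many of these could not move. A member with 1 probe set above every floor has the same ratio at each floor and with the median over probe sets. Centring shifts such ratios alike. The count of 285 therefore says little about error. The 5 ratios that moved further were Rsad2 (-0.60 to -0.03) and Isg20 (-0.57 to -0.16) with the floor at percentile 75, Xaf1 (-0.69 to -0.12) and Eif2ak2 (0.28 to -0.20) with the median over probe sets, and Usp18 (-0.85 to -0.51) with the pseudocount. Rsad2, Xaf1 and Usp18 were then no longer at least 1.5-fold lower. By smaller moves, Rsad2 also fell short of 1.5-fold with quantile normalization (-0.54), loess (-0.57), the pseudocount (-0.46) and the median over probe sets (-0.51). Ifih1 fell short of it with the pseudocount (-0.54). Quantile normalization, centring, loess and leaving out _x_at and _s_at probe sets kept the members' median within 0.1 and their counts within 1.5 times. The members' median was -0.22 with the floor at percentile 75, where 26 members were measured. The effectors' median was then -0.22 too, and 3 of 20 measured were at least 1.5-fold lower, against 1.29% of all genes at that floor. With the floor at percentile 25, no floor or the median over probe sets, the members' median was -0.24. With the pseudocount it was -0.26. The count of lower members was 3 of 33 with a pseudocount of 1 floor, where 1.39% of all genes were lower. It was 0 at a size of 2-fold (0.572% of all genes). At a log2 size of 0.32, 17 were lower and 1 higher (8.56% and 7.26% of all genes). With the floor at percentile 25 or no floor, 1 member was higher, a factor (Stat2), where 2.98% and 5.43% of all genes were. With the pseudocount the sensors' median was -0.37 with 0 at least 1.5-fold lower, and 3 effectors were lower. Taking the median over probe sets gave 3 lower effectors (2.4% of all genes were lower) and a receptor median of 0.15. Of the other pathway genes 2 of 44 were lower with the floor at percentile 75 (1.29% of all genes), 7 of 66 lower and 2 higher with no floor (3.81% and 5.43% of all genes), and 2 of 54 lower and 0 higher with the pseudocount (1.39% and 0.979%). Of 92 measured genes with a longer element that ends in C, 9.78% were lower and 4.35% higher, against 2.51% and 1.56% of measured genes without it. No paired analysis was possible because each genotype has 1 array. MAS5 signals near the floor are noisy, which limits Usp18, Stat2, Irf7 and Ifit1 most.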

Other observations

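Genes outside the list of 39 that hold the response element were looked at singly. Of the 82 measured ones with a longer form of it, in which the second GAAA is followed by C, 8 (9.76%) were at least 1.5-fold lower and 4 (4.88%) higher, against 2.51% and 1.56% of measured genes without that form. The following names come from the 327 genes with the shorter form and were chosen after their values were seen. The lower genes include the Trim genes Trim30d (238 against 424, log2 -0.84), Trim5 (130 against 211, -0.70) and Trim12c (68.0 against 103, -0.60), and Serpinb9, an inhibitor of granzyme B (215 against 360, -0.74). Mmrn1, multimerin of platelets and endothelium, had the lowest ratio (105 against 237, -1.18). The higher genes include myeloid genes, among them Cybb, the catalytic subunit of the phagocyte NADPH oxidase (178 against 83.8, 1.09), and the C-type lectin gene Clec4d (311 against 168, 0.89). Genes with the element therefore differed in both directions.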
